A study of Mus musculus with 60 samples.

Results

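The genes described here are 10 members of the junctions that hold epithelial cells together: the claudins Cldn2, Cldn3, Cldn4, Cldn6, Cldn7, Cldn12 and Cldn23, the scaffold gene Tjp1, occludin (Ocln) and E-cadherin (Cdh1). They were chosen by symbol, and each of the 10 was found as 1 Ensembl gene in all 3 count tables, which hold 23440, 23068 and 28773 genes. The tables come from mouse intrahepatic cholangiocyte organoids, hollow epithelial structures grown from bile duct fragments of C57BL/6N animals aged 3 to 4 months per the labels. The first table compares 3 cultures in Matrigel domes with 3 cultures of fragments moved into dilute Matrigel suspension on a shaker, the same pools of several mice being grown both ways. The second follows Sets 1, 3 and 4, each from 1 male mouse, at passage 4 and passage 11, with 2 technical libraries per culture that were summed. The sources used here do not give whether these bulk cultures grew in domes or in suspension. The third holds 35 kept single organoids picked from suspension, comprising 8 from Set 1 (passage 11), 10 from Set 2 (passage 3), 5 from Set 3 (passage 3) and 12 from Set 4 (passage 4). Each set is 1 animal, so animal and passage cannot be told apart among single organoids, save between Sets 2 and 3, which shared passage 3. P-values between sets measure the spread between organoids of 1 mouse. All cultures were untreated and carried no engineered allele.

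Bile duct epithelium separates bile from the tissue beneath it, and the seal between its cells is the tight junction, a belt of strands close to the apical surface. Claudins are small membrane proteins that polymerise into these strands. Some of them tighten the belt, while others, Cldn2 above all, form pores that let small cations and water pass between cells. Occludin joins the strands, Tjp1 (ZO-1) anchors them to actin from the cytoplasmic side, and Cdh1 mediates adhesion between neighbouring cells in the adherens junction just below. Cldn3, Cldn4 and Cldn7 are widespread epithelial claudins, whereas Cldn6 is best known from embryonic epithelia.

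The members are spread over the genome, with 1 close pair. On GRCm38, Cldn4 (ENSMUSG00000047501) lies on the minus strand of chr5:134945119-134946934 and Cldn3 (ENSMUSG00000070473) on the plus strand of chr5:134986214-134987472, 39279 bases apart. Cldn6 (ENSMUSG00000023906) lies on chr17:23679249-23682446, and its end is 138 bases from Cldn9 on the opposite strand. The other claudins are Cldn2 (ENSMUSG00000047230) on chrX:139800828-139811386 (plus strand), Cldn7 (ENSMUSG00000018569) on chr11:69964779-69967885 (plus strand), Cldn12 (ENSMUSG00000046798) on chr5:5489537-5514958 (minus strand) and Cldn23 (ENSMUSG00000055976) on chr8:35824712-35826559 (minus strand). Tjp1 (ENSMUSG00000030516) lies on chr7:65296165-65527781 (minus strand) and holds other annotated transcripts, Ocln (ENSMUSG00000021638) lies on chr13:100496507-100552718 (minus strand) and Cdh1 (ENSMUSG00000000303) lies on chr8:106603351-106670246 (plus strand). Cldn3 overlaps Wbscr25 on the opposite strand, and the sources used here do not give whether the counting used strand. The start regions of Cldn4, Cldn3 and Cldn6 are shown. Cldn3 and Cldn4 moved together among single organoids, and Cldn4 and Cldn6 fell with passage. Each is 300 bases of the RefSeq promoter table for GRCm38.p6, from 250 bases before the start to 50 after it, read in the direction of transcription. Capitals mark matches, on either strand, to CAGGTG (an E-box), TGANTCA (an AP-1 site), AACNGGTT, GGGCGG (a GC box) or TATAAA.
Cldn4, chr5:134946885-134947184, minus strand: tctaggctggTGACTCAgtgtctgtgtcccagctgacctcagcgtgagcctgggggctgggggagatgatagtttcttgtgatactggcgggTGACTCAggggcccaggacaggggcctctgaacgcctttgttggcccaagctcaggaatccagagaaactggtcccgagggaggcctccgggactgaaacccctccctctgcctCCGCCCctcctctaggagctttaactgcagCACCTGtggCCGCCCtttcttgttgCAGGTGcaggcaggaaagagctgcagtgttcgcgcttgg
Cldn3, chr5:134985964-134986263, plus strand: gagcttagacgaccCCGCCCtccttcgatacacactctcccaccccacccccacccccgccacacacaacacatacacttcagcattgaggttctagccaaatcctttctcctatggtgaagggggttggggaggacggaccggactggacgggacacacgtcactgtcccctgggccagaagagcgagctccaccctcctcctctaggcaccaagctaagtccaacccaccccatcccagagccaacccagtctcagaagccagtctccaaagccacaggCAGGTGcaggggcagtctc
Cldn6, chr17:23679115-23679414, plus strand: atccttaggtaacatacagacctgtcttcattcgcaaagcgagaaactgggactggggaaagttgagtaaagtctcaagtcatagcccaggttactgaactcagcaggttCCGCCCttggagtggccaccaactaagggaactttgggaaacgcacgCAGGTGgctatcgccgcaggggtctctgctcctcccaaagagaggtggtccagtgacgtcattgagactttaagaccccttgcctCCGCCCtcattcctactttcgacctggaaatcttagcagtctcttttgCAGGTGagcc
The Cldn4 window held 2 matches to TGANTCA, and none was found in the windows of Cldn3 and Cldn6. Over all 32851 promoter windows of the table, 7.81% held at least 1 such match and 0.46% held 2 or more. CAGGTG was matched 2 times in Cldn4, 1 time in Cldn3 and 2 times in Cldn6, against 20.2% of all windows with any match. GGGCGG was matched in all 3 windows, against 35.7%. Among windows not shown, each one of Ocln, called lower at bulk passage 11 but not in every alternative run, held matches to these 2 motifs. So did window 2 of Cldn7, which was not called between passages. The windows of Cldn2, Cldn12 and Tjp1 held no CAGGTG. None of the 3 windows shown, those of Cldn4, Cldn3 and Cldn6, held TATAAA (13.6% of all windows) or AACNGGTT (2.09%). The matches describe letters only and no factor was measured here.

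Depth differed widely between libraries. Totals ran from 1776490 to 14761853 counts in the dome and suspension table, from 1486347 to 5532630 in the summed passage cultures and from 1059002 to 11175868 in the kept organoids. Levels are given as CPM, the counts scaled to a common library size,, scaled by the trimmed mean of M-values (TMM) over the genes kept in each table, so that levels in different tables were normalised separately and are set side by side only as a description. All 8 cholangiocyte markers, Krt19, Epcam and Sox9 among them, had counts in every group, with a summed level of 2950 to 9140 CPM. Of the 8 mesenchymal markers, 1 to 4 had any count in a group and their sum stayed at or below 0.96 CPM. The 6 endothelial markers summed to at most 3.83 CPM, with Cdh5 and Kdr at 0 in all groups. The 6 macrophage markers summed to 0.742 to 93.1 CPM, the highest sum being in domes, with Clec4f and Marco at 0 in all groups. The hepatocyte list summed to 221 to 2630 CPM, 3 to 6 of its 8 genes having a count in a group and Serpina1a having none in any. Alb averaged only 0.353 to 8.31 CPM over the groups, so these sums rest mostly on other genes of the list. In single organoids Ttr averaged 515 to 1350 CPM per set. In these mixed samples, fewer cells of a type and less RNA per cell cannot be told apart.

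Domes carried more RNA of 4 claudins than suspension cultures of the same pools: Cldn3, Cldn4, Cldn7 and Cldn23 rose, and no member fell at an adjusted p-value below 0.05 in edgeR's quasi-likelihood test with Benjamini-Hochberg adjustment over all 12699 genes tested. Of all genes tested, 29.8% were called, 15% higher and 14.7% lower in domes. Of 9 members that passed the filter on low counts, 4 were higher and 5 were not called, with a median log2 fold change (dome minus suspension) of 0.65 against −0.037 over all genes. For 3 of the 9 the CPM of the groups did not overlap, which was so for 47.4% of all genes. Cldn6 did not pass the filter.

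Cldn3, a barrier-forming claudin, was measured at 694, 1170 and 651 CPM in dome replicates 1, 2 and 3 and at 253, 227 and 196 CPM in the suspension replicates. Every dome exceeded every suspension culture. The log2 fold change was 1.89 (SE 0.27, adjusted p = 0.00174), or 3.72-fold. Cldn4, its neighbour on chromosome 5, was at 181, 1340 and 421 CPM in domes and at 126, 200 and 119 CPM in suspension. The domes differed among themselves by 7.4-fold, replicate 2 being highest, and dome replicate 1 lay below suspension replicate 2, although within each replicate number the dome was higher. The log2 fold change of Cldn4 was 2.12 (SE 0.59, adjusted p = 0.0239). It fell to 1.01 (adjusted p = 0.0601) without dome replicate 2. The call was also lost without suspension replicate 1 (2.03, adjusted p = 0.0858) or 3 (1.98, adjusted p = 0.0938).

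Cldn7, a claudin also found along the lateral membrane, was at 1160, 861 and 797 CPM in domes and at 479, 463 and 490 CPM in suspension. The suspension cultures lay close together and all below the domes, with a log2 fold change of 0.98 (SE 0.22, adjusted p = 0.00958). The call was lost without any 1 of the suspension replicates, at adjusted p = 0.055, 0.0559 and 0.0503. The log2 fold change stayed at 0.99, 0.95 and 0.98 in these runs. They called 1893, 2209 and 1926 of all genes, against 3779 with every library. Cldn23, a claudin with a long cytoplasmic tail, was rare, at 5.41, 11.0 and 5.5 CPM in domes and 2.31, 3.55 and 1.93 CPM in suspension. These levels rest on 10 to 71 counts per dome library and 11 to 28 per suspension library. The groups did not overlap, and the log2 fold change was 1.43 (SE 0.40, adjusted p = 0.024). Without suspension replicate 1 or 3 it was not called (1.41 and 1.20, adjusted p = 0.077 and 0.115), nor when counts were thinned to the total of the smallest library (1.09, adjusted p = 0.169).

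Cldn2, the pore-forming claudin, was at 143, 133 and 243 CPM in domes and at 84, 112 and 134 CPM in suspension. The lowest dome and the highest suspension culture were nearly level, and the log2 fold change of 0.65 (SE 0.27) was not called at adjusted p = 0.0932. It was called when replicate number was added to the model as a block, at 0.64 (adjusted p = 0.0325). Cldn6 had 2, 1 and 0 counts in the domes and 0, 2 and 135 counts in suspension replicates 1, 2 and 3. It was thus found almost entirely in suspension replicate 3, at 9.3 CPM, and that library alone set the call that appeared when no filter was applied. Cldn12, which lacks the tail motif by which other claudins bind scaffolds, was at 9.9 to 13.3 CPM in domes and 11.4 to 15.5 CPM in suspension (log2 fold change −0.21, SE 0.24, adjusted p = 0.548).

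The members that are not claudins, Tjp1, Ocln and Cdh1, were not called. Tjp1 was at 11.7 to 19.1 CPM in domes and 10.2 to 13.5 CPM in suspension (log2 fold change 0.40, SE 0.26, adjusted p = 0.277). Ocln was at 54.7 to 65.4 CPM against 48 to 56 CPM (0.23, SE 0.18, adjusted p = 0.352). Cdh1 was at 116 to 153 CPM against 138 to 188 CPM (−0.25, SE 0.20, adjusted p = 0.376). In all 3 the ranges of the groups overlapped. With library totals in place of TMM, a setting added after the data were seen, the median of all genes moved to −0.42 and 848 of 3888 called genes were higher in domes, against 1907 of 3779 with TMM. On that scale Cldn3 (1.46) and Cldn4 (1.62) stayed called, Cldn7 (0.59, adjusted p = 0.061) and Cldn23 (1.03, adjusted p = 0.0607) were not, and Ocln turned to −0.15. Proliferation markers summed to 79.2 to 177 CPM in domes and 341 to 406 CPM in suspension, and macrophage markers to 6.93 to 93.1 against 3.37 to 9.22 CPM. Their part in the differences was not tested.

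**Figure D1:**
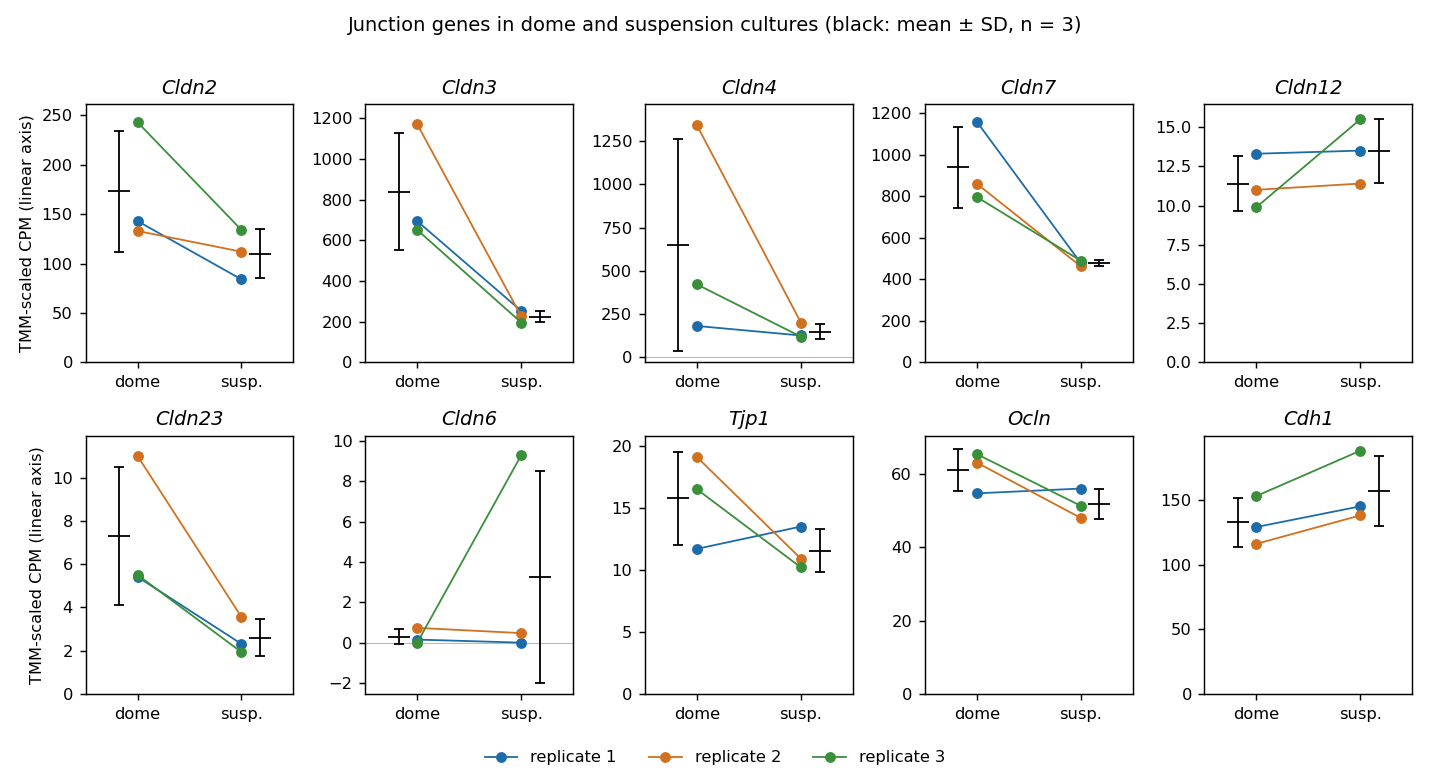
TMM-scaled CPM (linear axis) of the 10 genes in 3 dome and 3 suspension cultures, with lines joining cultures of the same replicate number and black bars giving mean ± SD (n = 3). All 3 lines fall steeply from dome to suspension for Cldn3 and Cldn7, dome replicate 2 stands far above the rest for Cldn4, and Cldn6 lies near 0 except at 9.3 CPM in suspension replicate 3.

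The companion junction genes are given beside the 29.8% called over all genes. Of 28 tested genes in the list of tight junction membrane proteins and scaffolds, 5 were higher in domes, 3 were lower and 20 were not called, with a median log2 fold change of 0.14, a share near that of all genes. The 5 were the adhesion molecules Jam2 (1.49, SE 0.32, adjusted p = 0.00781) and F11r (0.80), the polarity protein Crb3 (1.20), the scaffold Tjp3 (1.02) and Marveld3 (0.77), a relative of occludin. Lower in domes were Cgnl1 (−1.51, SE 0.26, adjusted p = 0.00348), which links junctions to the cytoskeleton, Marveld2 (−1.02), the tricellular relative of occludin, and the scaffold Magi3 (−0.97). No overlap between groups was seen for any of these 8. Of 20 adherens junction genes, 3 were higher, Nectin2 (1.30), Jup (1.26) and Plekha7 (0.86), and 3 lower, P-cadherin Cdh3 (−2.04), Nectin3 (−1.45) and Afdn (−1.07). Among 10 desmosome genes Pkp3 (1.49) and Perp (0.90) were higher and none was lower. Of 7 tested gap junction genes, 1 was higher in domes, Gjb1 (2.31), and 2 were lower, among them Gja1 (−2.70). The values of Gja1 overlapped between groups. Of 11 epithelial transcription factors and their opposites, Elf3 (1.95), Klf4 (1.75) and Ovol1 (1.71) were higher and none was lower. The other claudins tested, Cldn8, Cldn18 and Cldnd1, were not called. All these lists were drawn up with earlier results of these data known.

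Between passage 4 and passage 11, 4 members fell and none rose: Cldn4, Cldn6, Ocln and Cdh1. The comparison asks how prolonged passaging of the same 3 cultures changed expression. Of 13738 genes tested, 20.3% were called, 10.1% higher and 10.1% lower at passage 11. All 10 members passed the filter, and their median log2 fold change (passage 11 minus passage 4) was −0.55, against −0.047 over all genes. For 5 of the 10 the groups did not overlap, against 39.5% of all genes.

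Cldn4 was at 1220, 430 and 412 CPM in Sets 1, 3 and 4 at passage 4 and at 173, 120 and 91.6 CPM at passage 11. All 3 sets were lower at passage 11, with log2 differences of −2.82, −1.83 and −2.17. The log2 fold change was −2.41 (SE 0.41, adjusted p = 0.0042), a 5.31-fold difference, and −1.70 (adjusted p = 0.00351) without the passage 4 culture of Set 1. Cldn3 was at 1110, 624 and 579 CPM and then at 722, 581 and 424 CPM, and was not called (−0.42, SE 0.26, adjusted p = 0.293). The ratio of Cldn4 to Cldn3 counts within a library was 1.1, 0.688 and 0.712 at passage 4 and 0.24, 0.208 and 0.216 at passage 11. The log2 of this ratio differed by −1.88 with no overlap, at a 2-sided exact permutation p of 0.1, the smallest that 3 against 3 cultures can give (0.133 after Benjamini-Hochberg adjustment over 8 comparisons). Between domes and suspension the same ratio differed by −0.15 (exact permutation p = 0.9), with the domes spread from 0.261 to 1.15.

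Cldn6 had 13, 23 and 15 counts at passage 4, which is 3.37, 4.41 and 2.64 CPM, and 0 counts in all 3 cultures at passage 11. With 51 counts over the group against a floor of 3 counts over the passage 11 group, it was at least 13-fold lower at passage 11 (adjusted p = 0.00293). After thinning it did not pass the filter and was not tested. Its close neighbour Cldn9 had 5 and 0 counts in the same groups. Cdh1 was at 235, 238 and 222 CPM at passage 4 and at 119, 144 and 114 CPM at passage 11. The passage 4 cultures lay tightly together and well above the others (log2 fold change −0.88, SE 0.14, adjusted p = 0.0031), and the call remained in every alternative run.

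Ocln was at 69.2, 51.6 and 45.4 CPM at passage 4 and at 35.5, 37.2 and 37.5 CPM at passage 11. All 3 early cultures were above all late ones (−0.59, SE 0.17, adjusted p = 0.0371). This call was lost with DESeq2 (adjusted p = 0.0558), after thinning (adjusted p = 0.14) and without any 1 of 5 cultures, at adjusted p from 0.0644 to 0.0978. It remained only when the passage 4 culture of Set 4 was the one left out. Tjp1 was at 28.5, 17.1 and 16.5 CPM and then at 11, 15.7 and 11.4 CPM. These did not overlap, but the log2 fold change of −0.66 (SE 0.26) was not called at adjusted p = 0.0995. The log2 differences of Tjp1 within Sets 1, 3 and 4 were −1.37, −0.12 and −0.53.

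Cldn7 and Cldn2, abundant in every culture, gave no call. Cldn7 was at 649, 812 and 651 CPM at passage 4 and at 849, 889 and 733 CPM at passage 11, slightly higher within each set (log2 fold change 0.23, SE 0.15, adjusted p = 0.315). Cldn2 was at 101, 156 and 164 CPM and then at 104, 156 and 127 CPM (−0.12, SE 0.21, adjusted p = 0.725). Cldn12 ranged from 15 to 16.7 CPM at passage 4 and from 9.54 to 16.8 CPM at passage 11 (−0.24, adjusted p = 0.466), and Cldn23 from 4.22 to 7.26 and from 2.92 to 4.37 CPM (−0.51, adjusted p = 0.326). Proliferation markers summed to 141 to 152 CPM at passage 4 and 337 to 439 CPM at passage 11, hepatocyte markers to 271 to 687 and 742 to 1090 CPM, and macrophage markers to 4.61 to 18.4 and 2.58 to 4.49 CPM. Alb did not follow the hepatocyte sum. It averaged 1.02 CPM (0.352 to 1.92) at passage 4 and 0.353 CPM (0.199 to 0.636) at passage 11. The part of these markers in the differences was not tested.

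**Figure D2:**
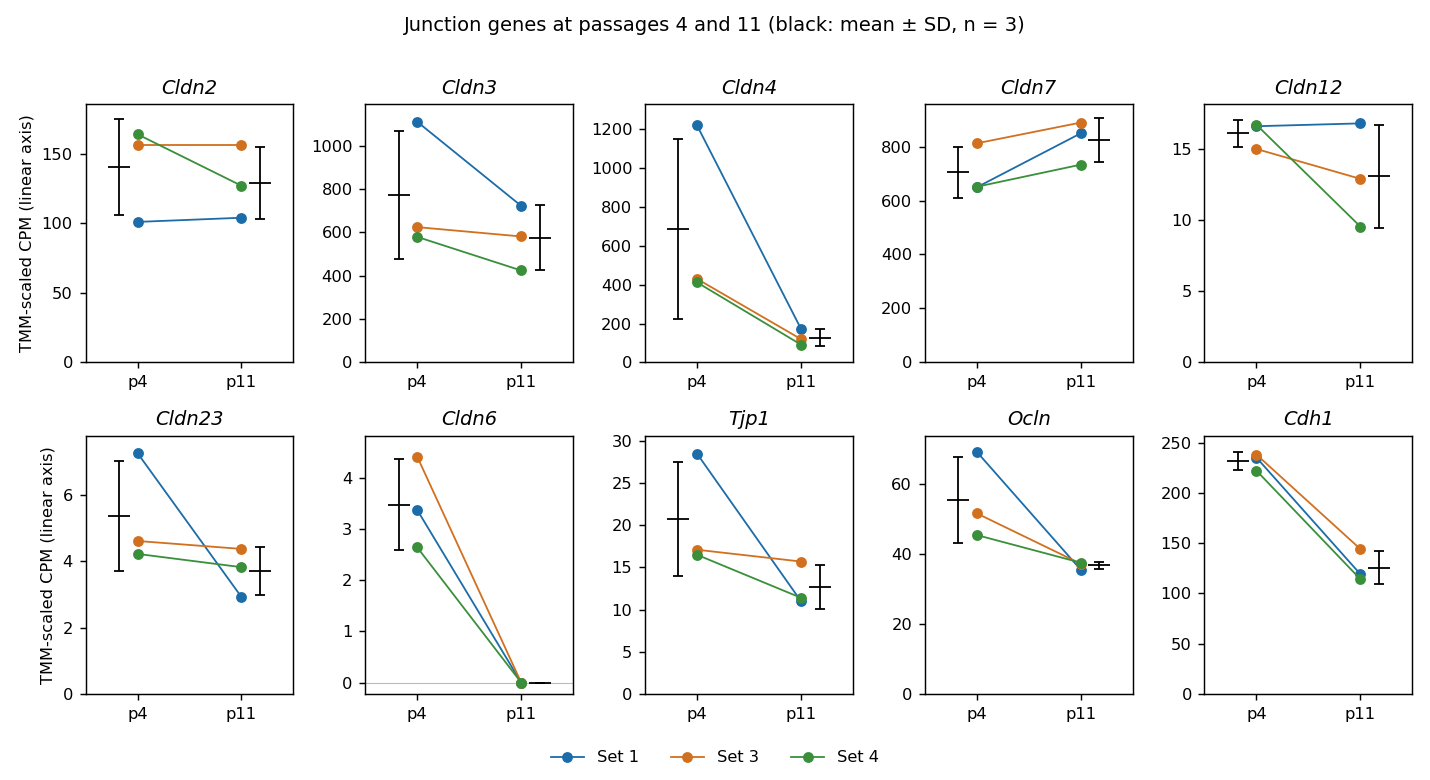
TMM-scaled CPM (linear axis) of the 10 genes in Sets 1, 3 and 4 at passage 4 and passage 11, technical libraries summed, with lines joining cultures of a set and black bars giving mean ± SD (n = 3). Cldn4, Cdh1 and Ocln drop in all 3 sets, and Cldn6 drops to 0. The lines of Cldn7 slope slightly upward, a difference that was not called.

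In the same cultures, 8 of 28 tested tight junction genes were called, where 20.3% of all genes were. The shares of the adherens junction genes below are near that of all genes, and those of desmosome genes and transcription factors are under it. Jam2 (2.24, SE 0.43, adjusted p = 0.00658), Ybx3 (0.66) and Ildr1 (0.65) were higher at passage 11. Amot (−0.98), Cgnl1 (−0.95), the virus receptor and adhesion molecule Cxadr (−0.91), F11r (−0.47) and Crb3 (−0.41) were lower. The median of the list was −0.16. Of 20 adherens junction genes, Jup was higher (0.64), and Nectin2 (−0.89), Afdn (−0.87), Vezt (−0.74) and Ptprf (−0.64) were lower. The desmosomal cadherin Dsg2 was the only 1 of 10 desmosome genes called (−1.29, SE 0.20, adjusted p = 0.00267). Of 7 tested gap junction genes, 3 were higher at passage 11, among them the channel protein Panx1 (0.72), and none was lower. The median of that list was 0.72, and its share called was above that of all genes. Klf4 (−0.88) was the only 1 called of 12 epithelial transcription factors and their opposites. None of the genes named here overlapped between passages. Cldn8, Cldn18 and Cldnd1 were again not called.

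Among single organoids, each comparison of 2 sets called between 1 and 5 of 9 tested members. The 6 comparisons came from 1 fit, with p-values adjusted over 13927 genes and all 6 comparisons together, and they share sets. Set 1 minus Set 2 called 4 members (14.3% of all genes), Set 1 minus Set 3 called 4 (9.43%), Set 1 minus Set 4 called 3 (20.0%), Set 2 minus Set 3 called 3 (3.93%), Set 2 minus Set 4 called 1 (12.4%) and Set 3 minus Set 4 called 5 (11.6%). Cldn23 did not pass the filter, having 5 to 12 counts per set in all. Cldn3 and Cldn12 were called in none of the 6, nor in any alternative run.

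Cldn4 was highest in Set 3, whose organoids 1, 3, 4, 5 and 6 were at 107, 40.4, 66.2, 83.1 and 84.8 CPM. Set 1 ran from 21.9 to 36.7 CPM with a median of 28.7, Set 2 from 23.1 to 58.0 with a median of 36.7, and Set 4 from 28.0 to 70.1 with a median of 35.1. All Set 3 organoids were above all Set 1 organoids, while Set 3 overlapped with Sets 2 and 4. The log2 fold change was −1.43 for Set 1 minus Set 3 (SE 0.23, adjusted p = 3.32e-05), −0.99 for Set 2 minus Set 3 (SE 0.22, adjusted p = 0.00222) and 0.88 for Set 3 minus Set 4 (SE 0.21, adjusted p = 0.00447). The call of Set 2 minus Set 3 was lost in a fit of only those sets (adjusted p = 0.0791). None of the comparisons among Sets 1, 2 and 4 was called, the nearest being Set 1 minus Set 4 at −0.55 (SE 0.20, adjusted p = 0.0571). That one was called without organoid 1 of Set 1, at −0.62 (adjusted p = 0.044). It was also called with DESeq2 (adjusted p = 0.0406) and with library totals in place of TMM (adjusted p = 0.0491). A fit of only those sets (adjusted p = 0.0185) and adjustment within each comparison (adjusted p = 0.035) called it too.

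Cldn3 did not share this order. Its medians were 208, 205, 237 and 250 CPM in Sets 1 to 4, over ranges of 159 to 285, 157 to 309, 140 to 307 and 177 to 501 CPM. The log2 ratio of Cldn4 to Cldn3 within an organoid averaged −2.91 ± 0.25 in Set 1 (SD, n = 8), −2.57 ± 0.31 in Set 2 (n = 10), −1.67 ± 0.16 in Set 3 (n = 5) and −2.71 ± 0.19 in Set 4 (n = 12). Set 3 thus stood above the other 3, with Set 1 differing from it by −1.23 (exact permutation p = 0.00155, adjusted over the 8 comparisons 0.00413), Set 2 by −0.90 (0.000666, adjusted 0.00266) and Set 3 exceeding Set 4 by 1.03 (0.000323, adjusted 0.00258). Set 1 minus Set 2 was −0.34 (exact permutation p = 0.0153, adjusted 0.0306). Set 1 minus Set 4 (−0.20) and Set 2 minus Set 4 (0.14) did not pass, at adjusted exact permutation p of 0.0936 and 0.271. This ratio was chosen with the values of both genes known.

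Cldn6 was nearly absent from Set 1, with 2 counts in organoid 3 and 0 in the other 7. Set 4 had 9 counts over 12 organoids, of which 6 had none. Set 2 had 50 counts over 10 organoids, with organoid 11 highest at 21 counts (6.16 CPM) and 2 organoids at 0. Set 3 had 41, 0, 6, 5 and 16 counts in organoids 1, 3, 4, 5 and 6, which is 12.2, 0, 3.25, 1.77 and 8.43 CPM. The gene was thus uneven within Sets 2 and 3 and overlapped between all sets, since each held organoids without a count. Relative to summed totals it was 34.0-fold higher in Set 2 than in Set 1 (exact 95% interval of the counts 8.92 to 288) and 91.8-fold higher in Set 3 than in Set 1 (24.5 to 773). Against Set 4 the ratios were 8.75 (4.26 to 20.2) for Set 2 and 23.7 (11.8 to 53.9) for Set 3, and these intervals cover counting error only. Single organoids weighed heavily here. Without organoid 3 of Set 1, which held its only counts, Set 2 was at least 19.5-fold and Set 3 at least 52.7-fold higher than Set 1, against a floor of 3 counts over the group. Without organoid 1 of Set 3 that set was 50.9-fold (12.8 to 441) above Set 1 and 13.1-fold (5.98 to 31.7) above Set 4. In the fit, Cldn6 was called for Set 1 minus Set 2 (−4.21, SE 0.87, adjusted p = 0.000934), Set 1 minus Set 3 (−5.62, SE 0.85, adjusted p = 1.05e-05), Set 2 minus Set 4 (2.78, SE 0.67, adjusted p = 0.0045) and Set 3 minus Set 4 (4.20, SE 0.67, adjusted p = 2.66e-05). The call between Sets 2 and 4 was lost with limma-voom (adjusted p = 0.0728) and after thinning (adjusted p = 0.0682). Set 2 minus Set 3 was not called (−1.41, SE 0.56, adjusted p = 0.0921) but was without organoid 3 of Set 3, at −1.74 (adjusted p = 0.0269). Cldn9 had 1 to 3 counts per set.

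Cldn2 was highest in Set 1, with 146 to 404 CPM and a median of 230. Set 2 ran from 96.4 to 189 CPM with a median of 130, Set 4 from 87.5 to 172 with a median of 112, and the 5 organoids of Set 3 were at 174, 143, 188, 170 and 180 CPM. The organoids of Set 3 lay close together, and those of Set 1 spread most widely. Set 1 exceeded Set 2 by 0.82 (SE 0.17, adjusted p = 0.000784) and Set 4 by 1.00 (SE 0.16, adjusted p = 2.36e-05) on the log2 scale. The difference to Set 3 was not called (0.50, SE 0.20, adjusted p = 0.0983). Ocln was likewise highest in Set 1, from 27.2 to 54.7 CPM with a median of 40.0. The other medians were 23.6, 21.2 and 24.9 CPM in Sets 2, 3 and 4. Set 1 exceeded them by 0.70 (SE 0.18, adjusted p = 0.0062), 0.82 (SE 0.22, adjusted p = 0.00971) and 0.60 (SE 0.17, adjusted p = 0.0129), with overlap in each case, and no comparison among Sets 2, 3 and 4 was called. For Ocln the call of Set 1 minus Set 2 was lost after thinning (adjusted p = 0.0634), and that of Set 1 minus Set 4 with all 42 organoids (adjusted p = 0.0674). Set 1 was at passage 11, whereas the bulk cultures held less Ocln at passage 11 than at passage 4.

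Cldn7 was lowest in Set 2, from 377 to 744 CPM with a median of 628. Set 3 was at 1020, 753, 1140, 862 and 922 CPM, all above Set 2 (Set 2 minus Set 3, −0.69, SE 0.16, adjusted p = 0.00366, and 0.113 in a fit of only those sets). Set 1 ran from 547 to 1010 CPM with a median of 845 and Set 4 from 497 to 829 with a median of 664. Set 1 minus Set 2 (0.47, SE 0.14, adjusted p = 0.0241) and Set 3 minus Set 4 (0.49, SE 0.16, adjusted p = 0.0332) were also called. Both of these calls were lost after thinning, at adjusted p = 0.0589 and 0.0604, and with all 42 organoids, at 0.158 and 0.145. Without organoid 1 of Set 1, Set 1 minus Set 2 was not called (adjusted p = 0.0568). Set 3 minus Set 4 was not called without organoid 1, 4 or 6 of Set 3, at adjusted p = 0.0724, 0.117 and 0.0582.

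Cdh1 was highest in Set 3, at 114, 233, 116, 136 and 123 CPM in organoids 1, 3, 4, 5 and 6. Organoid 3 stood far above the other 4. Set 1 ran from 71.6 to 120 CPM with a median of 102, Set 2 from 66.6 to 121 with a median of 88 and Set 4 from 75.8 to 123 with a median of 91.2. Cdh1 was called for Set 1 minus Set 3 (−0.50, SE 0.17, adjusted p = 0.0433), Set 2 minus Set 3 (−0.66, SE 0.16, adjusted p = 0.00447) and Set 3 minus Set 4 (0.66, SE 0.15, adjusted p = 0.00353). Without organoid 3 of Set 3 these became −0.26 (adjusted p = 0.344), −0.42 (adjusted p = 0.0798) and 0.41 (adjusted p = 0.0764), so that all 3 calls rested on that organoid. The call of Set 1 minus Set 3 was also lost without organoid 5 (adjusted p = 0.0567), and in fits of only the sets compared Set 1 minus Set 3 and Set 2 minus Set 3 were not called (adjusted p = 0.132 and 0.146). The same organoid 3 had the lowest Cldn3, Cldn4 and Cldn6 of its set and the highest Tjp1.

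Tjp1 was at 55.3, 106, 103, 76.3 and 66.4 CPM in Set 3 and from 31.8 to 109 CPM with a median of 63.8 in Set 1. Set 2 ran from 23.4 to 84.2 CPM with a median of 42.2 and Set 4 from 27.2 to 66.1 with a median of 36.5. Set 4 was lower than Set 1 (Set 1 minus Set 4, 0.78, SE 0.22, adjusted p = 0.015) and than Set 3 (Set 3 minus Set 4, 0.98, SE 0.25, adjusted p = 0.00642), with overlap in both. With all 42 organoids neither was called, at 0.47 (adjusted p = 0.232) and 0.62 (adjusted p = 0.156). Set 2 minus Set 3 was not called (−0.70, SE 0.26, adjusted p = 0.0686) but was without organoid 1 of Set 3, at −0.81 (adjusted p = 0.0447). Cldn12 had medians of 8.37, 6.69, 6.36 and 7.95 CPM in Sets 1 to 4 over 4.85 to 13.2 CPM, and Cldn23 had medians of 0.236 to 0.353 CPM, near the level of 1 count.

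**Figure D3:**
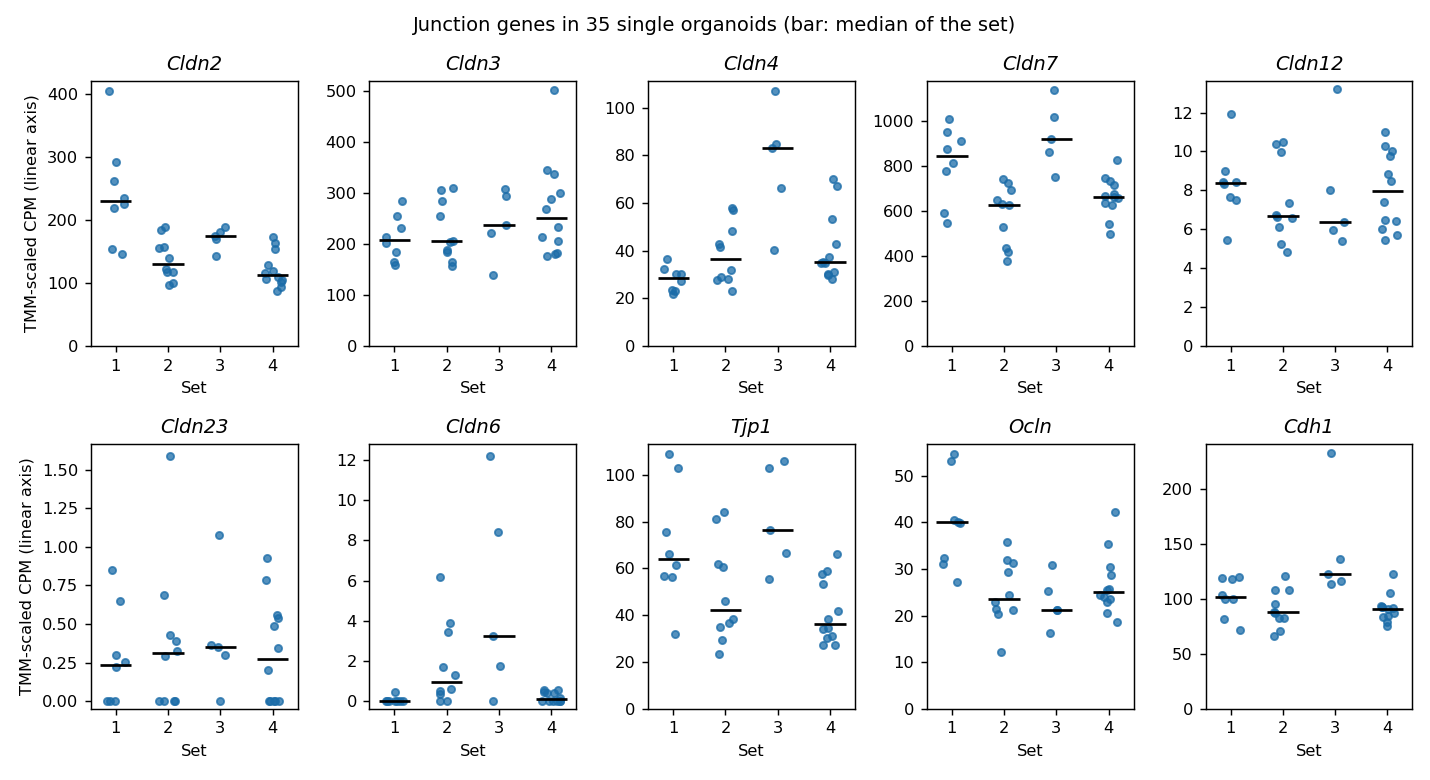
TMM-scaled CPM (linear axis) of the 10 genes in 35 single organoids, by set, each point being 1 organoid and each bar the median of the set. Cldn4 is highest in Set 3, Cldn2 and Ocln in Set 1, Cldn6 is near 0 in Sets 1 and 4, and 1 organoid of Set 3 stands at 233 CPM of Cdh1.

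The companion genes called between sets are given in the same order as the shares of all genes, which were 14.3%, 9.43%, 20.0%, 3.93%, 12.4% and 11.6%. Of 29 tested tight junction genes, the numbers called were 9 for Set 1 minus Set 2, 5 for Set 1 minus Set 3, 13 for Set 1 minus Set 4, 3 for Set 2 minus Set 3, 7 for Set 2 minus Set 4 and 9 for Set 3 minus Set 4. Among those without overlap was Ildr2, an angulin of tricellular contacts, for Set 1 minus Set 2 (−4.19, SE 0.53, adjusted p = 3.8e-07) and Set 2 minus Set 3 (3.78, SE 0.64, adjusted p = 6.33e-05). For Set 1 minus Set 3 they included the angiomotin relatives Amotl1 (−2.21) and Amotl2 (−1.11), Cgnl1 (−1.53) and Marveld3 (0.69), and for Set 3 minus Set 4 Cgnl1 (1.35). Of 20 adherens junction genes, 1 to 6 were called in a comparison, all with overlap. Cdh3 was lower in Set 1 than in Set 2 (−2.56), Set 3 (−2.45) and Set 4 (−1.99). Of 10 desmosome genes, 2 were called in each comparison with Set 4, all higher in the other set, and none elsewhere, and for Set 1 minus Set 4 that is the share of all genes. Of the other claudins only Cldn18, a claudin of stomach and lung, was called, higher in Set 1 than in Set 3 (1.55, adjusted p = 0.0328) and Set 4 (1.29, adjusted p = 0.0139). Among 6 tested gap junction genes, Gjb1 was higher in Set 1 than in Sets 2, 3 and 4 (1.42, 1.16 and 1.41). Gja1 was lower there (−1.02, −0.95 and −1.51), and all of these overlapped. Gjb5 (−2.05) and Panx1 (−0.55) were also lower in Set 1 than in Set 4. Proliferation markers summed to 288 to 1050 CPM in Set 1, 606 to 1430 in Set 2, 703 to 1140 in Set 3 and 479 to 1050 in Set 4, and hepatocyte markers to 510 to 2390, 532 to 1480, 417 to 669 and 484 to 2630 CPM. Their part in the differences between sets was not tested.

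Across all groups the members kept different orders of level. The mean of Cldn4 was 687 CPM in bulk cultures at passage 4 and 647 CPM in domes, 148 CPM in suspension and 128 CPM at passage 11, and then 76.3, 41.2, 38.8 and 28.2 CPM in single organoids of Sets 3, 4, 2 and 1. Cldn3 ran from 838 CPM in domes and 771 and 576 CPM at passages 4 and 11 to 225 CPM in suspension and 212 to 269 CPM in the sets of single organoids. Tjp1 was higher in single organoids, at 41.7 to 81.4 CPM, than in the 4 bulk groups, at 11.5 to 20.7 CPM. Cdh1 was highest at passage 4, with 232 CPM, and 91.0 to 157 CPM elsewhere. RNA of bulk cultures and of single organoids was extracted with different kits, and levels in different tables were not tested against each other. Within 1 table, neighbours in these orders that were not called are not told apart by their spread. Examples are Cldn4 in Sets 4 and 2 and in Sets 2 and 1.

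The spread among organoids of 1 set differed between members. The pooled SD within sets, in log2 CPM, was 0.27 for Cdh1, 0.28 for Cldn7, 0.35 for Cldn2, 0.37 for Ocln, 0.38 for Cldn12, 0.40 for Cldn3, 0.43 for Cldn4 and 0.53 for Tjp1. The median over genes within 0.5 log2 CPM of each of these 8 was 0.36 to 0.50. Tjp1 exceeded 87.0% of the 1545 genes near its level, whereas Cdh1, Cldn7 and Cldn12 exceeded 15.9%, 12.7% and 10.3% of theirs. Cldn6, with few counts, had an SD of 1.48 against a median of 1.24 over genes near its level, which depended on the prior count of 0.5 and was 0.92 with a prior count of 2. The share of variance that lay between sets was 55.9% for Cldn2, 50.7% for Cldn4, 47.1% for Cldn6, 45.4% for Cldn7, 40.7% for Cdh1, 39.5% for Ocln and 36.0% for Tjp1, against a median of 18.9% over all genes. For Cldn3 it was 9.32% and for Cldn12 3.64%. Unlike the medians given for the SD, the median share was not restricted to genes near the level of a member. Jackknife errors of these shares were 8.77 to 18 percentage points.

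Within sets, Cldn3 and Cldn4 went up and down together. After the mean of its set was taken from each value, their Pearson r over 35 organoids was 0.84, the highest of the 36 pairs of members, whose median was 0.165 and whose range was −0.46 to 0.84. The next pairs were Cldn3 with Cldn12 (0.52), Cldn4 with Cldn12 (0.49) and Cldn3 with Cldn6 (0.49). Tjp1 was negative with 5 claudins, at −0.46 with Cldn3, −0.43 with Cldn12, −0.35 with Cldn6, −0.27 with Cldn4 and −0.10 with Cldn2, and positive with Cldn7 at 0.18. The points share their libraries and differ in depth: with the log10 of the library total, r was 0.56 for Cldn7, 0.45 for Cdh1, 0.44 for Cldn2, 0.24 for Cldn3, 0.10 for Cldn4 and −0.24 for Tjp1.

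**Figure D4:**
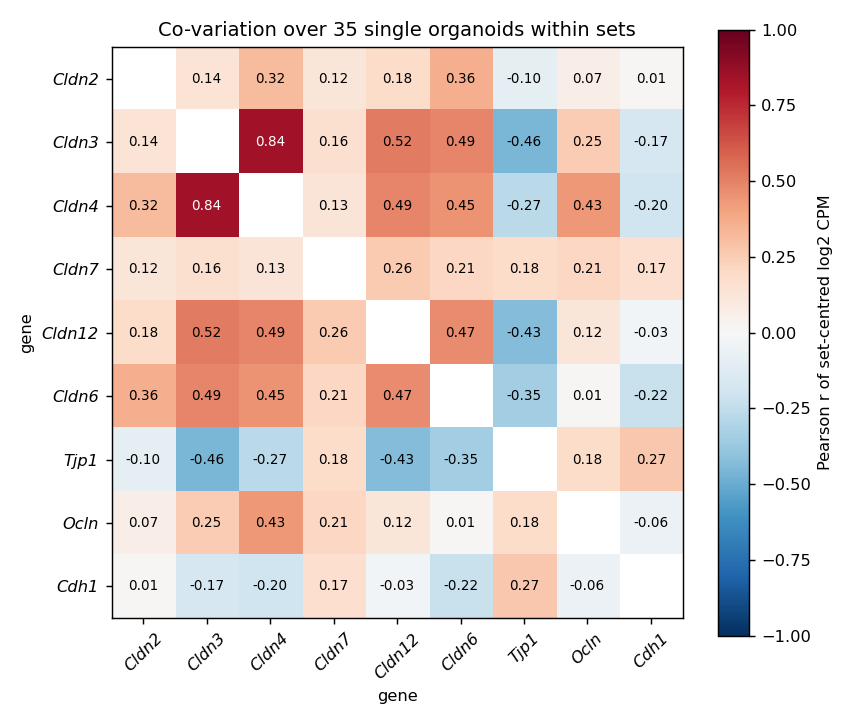
Pearson r between members over 35 single organoids, on log2 CPM with the mean of each set subtracted, from blue (−1) to red (1). Cldn3 and Cldn4 form the strongest pair at 0.84, and the row of Tjp1 is negative with Cldn3, Cldn4, Cldn6 and Cldn12.

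The genes most like each member were sought among 6117 genes with a mean log2 CPM of at least 4, by the same r. Cldn3 and Cldn4 had the same nearest genes, Tnfrsf12a, a receptor of the TNF family (0.83 and 0.79), and the chemokine Cxcl16 (0.81 and 0.79). Cldn7 was nearest to Efhd2 (0.85) and the protease inhibitor Spint2 (0.80), both of which followed the library total at 0.67. Cldn2 was nearest to Tmsb4x (0.74) and Lamp2 (0.69), Cdh1 to Stk40 (0.69) and Efr3a (0.66), and Ocln to Ppp2r2b (0.65) and the keratin Krt23 (0.64). The r of Tmsb4x, Lamp2, Stk40 and Efr3a with the log10 of the library total was 0.53, 0.38, 0.6 and 0.07. Tjp1 was nearest to Eif3j2 (0.91) and Aebp2 (0.91), while Cldn6 was nearest to Bud23 (0.65) and Gosr2 (0.64). For Cldn12 the nearest genes were Card19 (0.65) and ENSMUSG00000063897 (0.64), which followed the library total at 0.3 and 0.5. All are descriptions over the same 35 libraries.

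**Figure D5:**
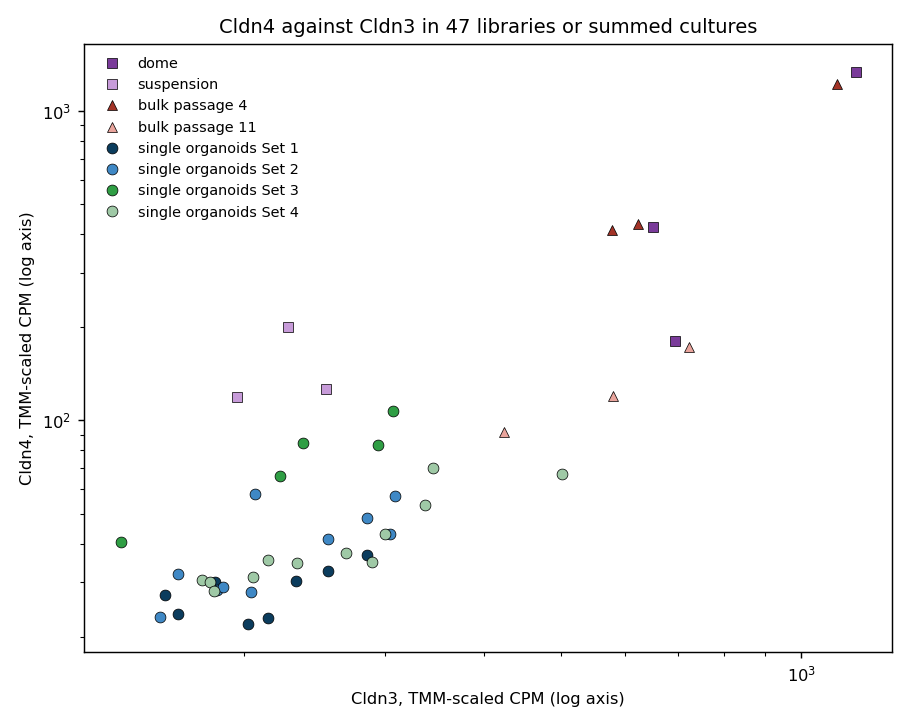
Cldn4 against Cldn3 in TMM-scaled CPM (both axes logarithmic) in every kept library or summed culture, coloured by group, with tables normalised separately. Single organoids sit at the lower left with Set 3 above the other sets at like levels of Cldn3. The 3 passage 11 cultures lie below the 3 passage 4 cultures in Cldn4. Their Cldn3 overlapped, at 424 to 722 CPM against 579 to 1110 CPM at passage 4.

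The 7 organoids that the study left out had fewer counts, from 666660 to 1152914. In CPM of the library total, Cldn3 was at 147 to 272, Cldn4 at 13.5 to 53.0 and Tjp1 at 21.8 to 92.2. Cldn7 was at 345 to 647 and Cldn6 at 0 to 5.20, with a median of 0. These values carry no TMM scaling.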

How the data were processed

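RNA of dome and suspension cultures, bulk cultures at 2 passages and single organoids was sequenced from the 3′ end with unique molecular identifiers. The deposited values are counts per gene, which the authors made with zUMIs, STAR, SAMtools 1.9 and featureCounts on mm10 with the GRCm38.93 annotation, down-sampling within zUMIs where library sizes varied. The sources used here do not give whether they are identifiers or reads, and intervals cover counting error only. The authors used R 3.6.3, edgeR 3.28.1 and limma 3.42.2.

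Here counts were fitted in R 4.3.3 with edgeR 4.0.16 (TMM, filterByExpr with a minimum count of 3, quasi-likelihood F-test, Benjamini-Hochberg threshold of 0.05), each table apart. Technical libraries of a passage culture were summed, and the 7 organoids the study left out were used in 1 alternative only. Alternatives were DESeq2 1.42.0, limma 3.58.1, other scaling and filters, thinning, replicate blocks and omitted libraries. Scripts were tested on simulated data. Passage cultures of 1 set number came from 1 animal. The sources used here do not give whether dome and suspension cultures of 1 number came from 1 pool. Residuals of cultures of 1 number correlated at 0.122, 0.113 and 0.13 for domes and suspension. For passages of Sets 1, 3 and 4 they correlated at 0.101, 0.0186 and 0.0797. P-values measure the spread between these samples. Named were all members, per companion list and comparison at most 5 called genes per direction by size of change whose groups did not overlap (overlap allowed where fewer than 2 qualified or the count was at most 5), and the 2 genes most like each member. The members and lists were chosen with earlier results of these data known. Log2 CPM for spread and correlation used a prior count of 0.5. Some companion genes that met the naming rule are not reported here.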

Additional observations from a re-analysis of the deposited data

Results flagged for a closer look

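In 27 groups of 5, 8 or 10 organoids, 2 values stood farther from the rest of their group than Dixon's 95% limit allows, a limit that chance alone passes in about 5% of groups. The Cdh1 level of organoid 3 of Set 3 was 233 CPM, above 114 to 136 CPM in the other 4 organoids of that set. The Cldn6 level of organoid 3 of Set 1 was 0.44 CPM, which is 2 counts, with 0 counts in the other 7 organoids. With all others at 0, any count at all would have passed that limit, so this value says nothing of its size.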

How the results depend on the processing

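Of the fold changes recomputed under alternatives, 1115 kept their direction and their side of the threshold or were uncalled both ways, 12 passed it anew and 55 no longer passed. None that was called turned its direction. Library totals without TMM, chosen after seeing the data, called 2 members between domes and suspension, no filter on low counts called 6, and omitting 1 culture called 1 to 4, the 1 being without suspension replicate 1 or 3. For passages, thinning to the smallest total called 2 members and omitting 1 culture 3 to 4. For Set 1 minus Set 2, thinning and a fit of only the 2 sets each called 2. A fit of only the 2 sets called 2 for Set 1 minus Set 3 and 0 for Set 2 minus Set 3; these fits hold fewer samples. With the replicate block and with all 42 organoids, Set 1 minus Set 4 called 1 each and Set 3 minus Set 4 called 3 each. Set 2 minus Set 4 called 0 with a minimum count of 10, limma-voom, thinning or only the 2 sets. Omitting 1 organoid gave 3 to 4 calls for each comparison of Set 1 and for Set 2 minus Set 3, 1 for Set 2 minus Set 4 and 4 to 5 for Set 3 minus Set 4. Apart from these constructions the cause was not tested. Organoid numbers mark no shared origin, so that their block is no pairing. The block by replicate number in domes and suspension, or by animal between passages, changed no call but that of Cldn2 between domes and suspension, 0.64 (adjusted p = 0.0325). Of the recomputed values of spread among organoids, 33 stayed within their error and 12 moved by more. Depth limits Cldn6 and Cldn23, which rest on few counts per library. Omitting organoid 1 of Set 1, the deepest, omitting libraries from the Cldn4 to Cldn3 ratio and omitting organoids from the Cldn6 ratios were also chosen after seeing the data, and all 27 values of the Cldn4 to Cldn3 ratio kept their direction and their side of the threshold or were uncalled both ways.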
